A study of Mus musculus with 4 samples.

Results

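The subject of this report is a set of 38 growth and angiogenic factor genes, measured in ID8G and GO2 mouse ovarian cancer cells. All are called ligands here, although Fgf11 and Fgf13 act inside the cell. The genes were chosen by name, with earlier results of these data known. In all, 62 array probes carried a RefSeq accession of one of these genes, out of 56605 probes and 22911 named genes on the array. All 38 genes had at least 1 probe. In 27 of them a probe gave enough signal to be tested. ID8G cells are ID8 cells, a line from mouse ovarian surface epithelium, transduced with a retrovirus that encodes GFP and sorted for it. GO2 cells were derived from ID8G cells by intraperitoneal injection into female C57BL/6 J mice, sorting of CD45-GFP+ cells from omental tumors, culture, and a second passage through mice in the same manner. Both lines therefore carry GFP. The paper gives a medium with serum, insulin, transferrin and selenite for ID8 cells and does not name one for GO2 cells. GO2 is a single selected line, so passage through the omentum and the history of this one line cannot be told apart. Each line was measured on 2 Agilent arrays with a single color, and the comparison of GO2 with ID8G is the only one the design holds.

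Growth factor ligands are secreted or shed proteins that bind receptors, most of them receptor tyrosine kinases, on the same or on neighboring cells. Members of the VEGF, PDGF, FGF and angiopoietin families are best known for their action on endothelial cells, pericytes and fibroblasts, and ligands of the EGF family act mainly on epithelial cells. In ovarian cancer VEGF is known for its part in ascites formation and tumor vessels. An mRNA level in cultured cells does not measure the secreted protein.

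Levels are log2 intensities of a probe relative to the 75th percentile of all probes on its array, so that 0 is the level of a fairly bright probe, and differences are GO2 minus ID8G on the same log2 scale. A level compares arrays for 1 probe and not different genes with each other. A gene stands by its brightest tested probe. It was called, and is said to have risen or fallen, at a Benjamini-Hochberg adjusted p below 0.05 (limma, over all probes tested) with at least a 2-fold difference. The labels do not say whether the arrays of a line came from separate cultures, so the p values measure the spread between these arrays, which may be technical. With 2 arrays against 2, an exact permutation test of a single gene cannot give a two-sided p below 0.333, so every adjusted p depends on the variance that limma pools over probes.

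All 4 arrays shared 1 slide and 1 scan. Per array, 27502 to 28841 probes were well above background, the 75th percentile of the intensity was 627 to 675, and no spot was saturated. Across tested probes, which are not independent, the arrays of a line correlated at 0.997.

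Among the 27 tested ligand genes, 5 rose and 6 fell in GO2 cells. Fgf5, Ptn, Gas6, Pros1 and Bdnf were higher. Areg, Angptl4, Fgf13, Pdgfb, Vegfc and Fgf21 were lower. Over all 13211 genes tested, 5.98% rose and 3.94% fell (9.92% in all), against 18.5% and 22.2% of the tested ligands. Because a gene bright in only one line can enter the test through that line alone, the shares were also taken over genes well above background on all 4 arrays. There, 4 of 24 ligands rose and 5 fell, against 3.65% and 2.91% of all such genes. The median size of the difference, in either direction, was 0.633 over the tested ligands and 0.207 over all tested genes. The median signed difference was -0.25 and 0.00, respectively. Because the set was chosen with earlier results of these data known, these comparisons do not test whether ligands changed more than other genes. The 7 added spike-in transcripts with usable signal were higher in GO2 cells by 0.15 to 0.28 after scaling. Scaling the arrays to them instead moved the median of all tested genes to -0.21 and the share of called genes that were higher from 60.3% to 48.6%, and it left 4 ligands higher and 6 lower.

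**Figure D1:**
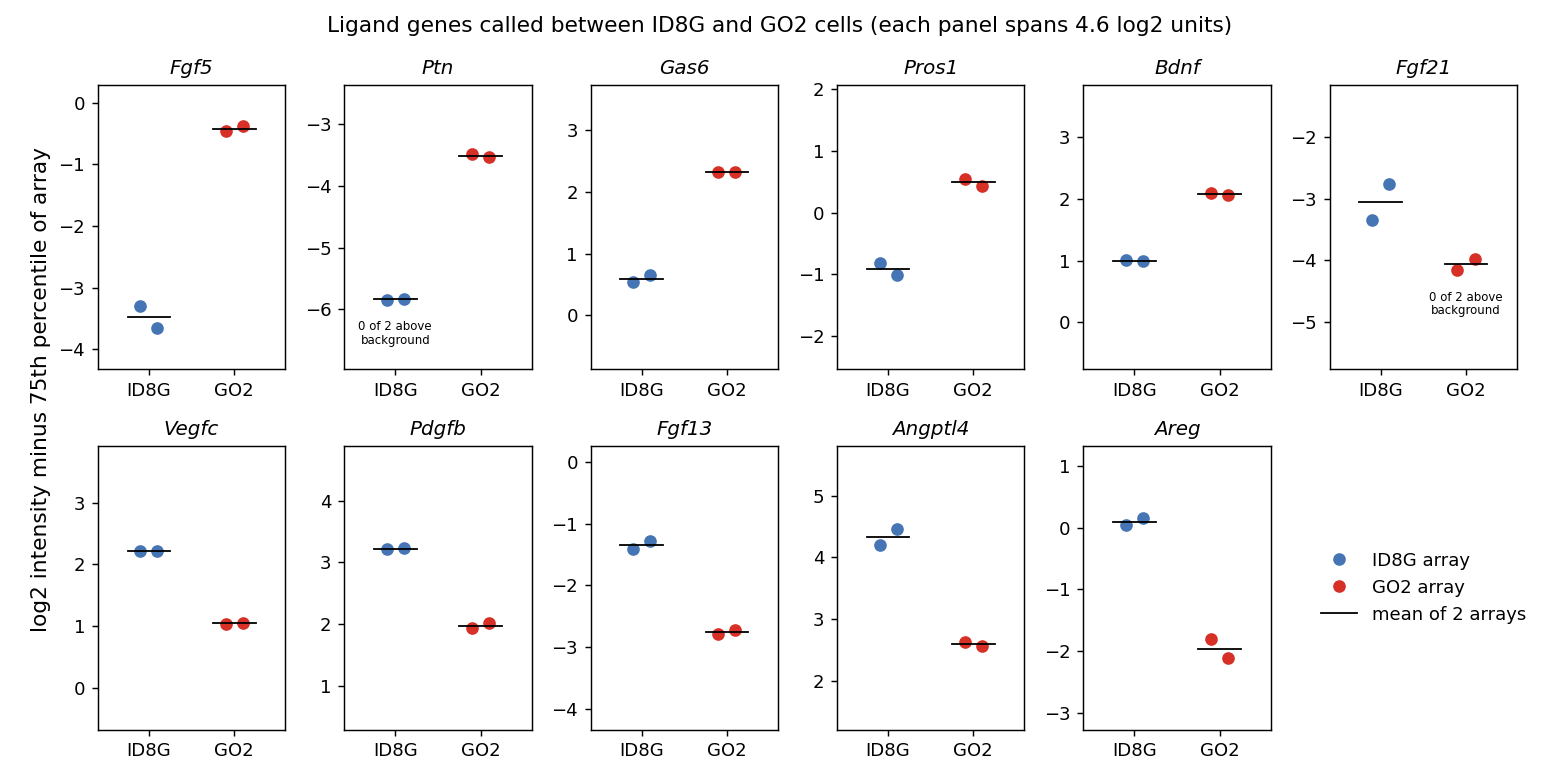
The level of each of the 11 called ligand genes on the 2 ID8G arrays (blue) and the 2 GO2 arrays (red), in log2 units relative to the 75th percentile, with a short line at the mean of each cell line. Each panel has its own axis, ordered by fitted difference from Fgf5 to Areg. The arrays of the lines do not overlap in any panel, which genes called at 2-fold seldom do. Over all tested genes the GO2 arrays lay above both ID8G arrays for 39.3% and below both for 39.1%.

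The label of the cells was read against marker genes. The keratins Krt8, Krt18 and Krt19 and the mesothelial genes Wt1 and Msln were well above background on all 4 arrays, while Epcam and Krt7 were not on any. Krt19 fell by 1.65, and Krt18 differed by -0.81, Krt8 by -0.55, Msln by -0.82 and Wt1 by -0.10. Of the other mesothelial genes, Upk3b rose by 1.08, while Upk1b differed by -0.01 and Lrrn4 by -0.04. The mean level of the 6 mesothelial markers was 3.73 to 3.83 on the ID8G arrays and 3.48 to 3.57 on the GO2 arrays. The mean level of the 6 epithelial markers was 1.71 to 1.73 on the ID8G arrays and 1.08 to 1.34 on the GO2 arrays. Ptprc, Adgre1, Lyz2, Mrc1 and Cd163 of leukocytes and Cdh5, Emcn and Cldn5 of endothelium were at background on all arrays. Other markers of the same lists, Csf1r, Cd14 and Cd68 of leukocytes and Esam and Pecam1 of endothelium, had signal well above background on each of the 4 arrays without being called. Over the whole lists, the mean level was -3.72 to -3.54 in ID8G cells against -3.69 to -3.59 in GO2 cells for leukocytes, and -4.91 to -4.61 against -4.89 to -4.76 for endothelium. Of 8 fibroblast markers 4 were tested, and Col1a1 (4.69), Col1a2 (7.49) and Pdgfra (3.70) rose, while Dcn differed by -0.63 and Lum, Thy1, Postn and Fap were not well above background. The mean level of the 8 was -2.94 to -2.74 on the ID8G arrays and -0.87 to -0.61 on the GO2 arrays. The 6 smooth muscle and pericyte markers averaged -2.88 to -2.55 in ID8G cells against -2.24 to -1.98 in GO2 cells. Pdgfrb of this list rose, while Acta2 (0.30) and Notch3 (-0.21) were not called. The 6 adipocyte markers averaged -4.39 to -4.10 against -4.63 to -4.00, and Fabp4 of this list fell. The shifts of the fibroblast, pericyte, epithelial and mesothelial lists ran beside the calls of 5 ligands higher and 6 lower, and their part in them was not tested. In bulk RNA a change in the share of cells of one kind and a change in RNA per cell cannot be told apart.

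Promoter sequences are shown for the pair of ligands of one receptor family that rose together, Gas6 and Pros1, and for Areg, the ligand with the largest fitted decrease. They are the 250 bases before the RefSeq transcription start in GRCm38.p6, on the strand of the gene, and lie outside the transcript. Gas6 lies on the minus strand of chromosome 8 (chr8:13494536-13494785), and Pros1 on the plus strand of chromosome 16 (chr16:62854057-62854306). Capitals mark the GC box GGGCGG, the binding motif of SP1, read on either strand.
Gas6: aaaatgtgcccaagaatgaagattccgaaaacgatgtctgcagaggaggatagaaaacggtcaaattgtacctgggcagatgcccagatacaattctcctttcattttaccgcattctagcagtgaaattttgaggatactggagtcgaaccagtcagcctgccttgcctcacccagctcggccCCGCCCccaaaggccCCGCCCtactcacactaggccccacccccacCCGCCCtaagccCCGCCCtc
Pros1: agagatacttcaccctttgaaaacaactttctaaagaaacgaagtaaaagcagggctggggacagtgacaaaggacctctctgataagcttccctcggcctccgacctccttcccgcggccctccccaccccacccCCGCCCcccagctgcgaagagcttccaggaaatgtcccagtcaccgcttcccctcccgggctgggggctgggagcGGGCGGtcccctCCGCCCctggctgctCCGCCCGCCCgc
The Gas6 window holds 4 GC boxes and the Pros1 window 5, of which the last pair overlaps. Of 32851 windows of this length in the table, 4.09% hold at least 4 and 1.93% at least 5. Such counts were not particular to ligands that rose. A window of Fgf13, which fell, and the Vegfb window, not called, also hold 4, and the window of Fgf21, which fell, holds 3. Among the other ligands that rose, the Fgf5 window holds 1, the Ptn window 0 and no Bdnf window more than 2. Neither the Gas6 nor the Pros1 window holds the TATA motif TATAAA. In the Areg window (chr5:91139349-91139598, plus strand), capitals mark the cAMP response element TGACGTCA, whose first base lies 61 bases before the start, and a TATAAA that begins 31 bases before it.
Areg: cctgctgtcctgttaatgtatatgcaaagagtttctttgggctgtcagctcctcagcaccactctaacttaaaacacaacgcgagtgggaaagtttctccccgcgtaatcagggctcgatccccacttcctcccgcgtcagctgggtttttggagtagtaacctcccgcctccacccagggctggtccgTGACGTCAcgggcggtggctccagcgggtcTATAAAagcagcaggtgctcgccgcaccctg
Of all windows, 1.55% hold TGACGTCA and 12.4% hold TATAAA. The Areg window also holds 1 GC box, which is left in lower case. These motifs and windows were picked after the differences were known, and a match describes letters only. Of the 11 called genes, 9 have a window in the table.

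The ligands of the TAM receptors (Tyro3, Axl and Mertk) are Gas6 and protein S, the product of Pros1, which bridge phosphatidylserine on dying cells to the receptor. Both rose. The Gas6 level was 0.54 and 0.65 in ID8G cells against 2.33 and 2.31 in GO2 cells. The means were 0.59 ± 0.08 (SD, n = 2) and 2.32 ± 0.01, a difference of 1.73 with a standard error of 0.06, or 3.31-fold (adjusted p = 0.000427). Pros1 was at -0.81 and -1.01 in ID8G cells against 0.54 and 0.43 in GO2 cells. It rose by 1.40 (standard error 0.09, adjusted p = 0.00167), which is 2.63-fold. The gap between the lines was thus far wider than the gap between the arrays of a line for both genes. A second, dimmer Pros1 probe was not well above background on either ID8G array and entered the test through GO2 cells alone. Its increase is known only as at least 1.43-fold, under the 2-fold limit, so it gives no support beyond the first probe.

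Of their receptors, Axl differed by 0.58 (adjusted p = 0.00481) and Tyro3 by -0.49 (adjusted p = 0.00511), both under the 2-fold limit. Mertk was not well above background on any array. Both ligands therefore moved further than the receptors that could be measured, although the differences between these genes were not themselves tested.

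In the FGF family, whose members signal through FGFR1 to FGFR4 or, for the homologous factors Fgf11 and Fgf13, act inside the cell on sodium channels, 5 of 10 genes were tested. Fgf5, known as a regulator of the hair cycle, had the largest increase among ligands well above background in both lines. Its level was -3.30 and -3.65 in ID8G cells against -0.46 and -0.38 in GO2 cells. The difference was 3.05 with a standard error of 0.13, or 8.29-fold (adjusted p = 0.000624). The probe was well above background on all 4 arrays, so the fold is a measured one.

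Fgf13 fell. Its level was -1.41 and -1.29 in ID8G cells and -2.79 and -2.72 in GO2 cells, a difference of -1.41 with a standard error of 0.07 (2.65-fold, adjusted p = 0.000768). With normexp background correction the difference was -0.84 and the 2-fold limit was no longer met. Fgf21, an endocrine FGF of metabolism, was at -3.35 and -2.76 in ID8G cells against -4.15 and -3.97 in GO2 cells. GO2 cells were not well above background for it on either array, which leaves a decrease of at least 1.69-fold (fitted difference -1.01, standard error 0.22, adjusted p = 0.0322). The Fgf21 call was lost without ID8G replicate 2 (difference -0.71), without GO2 replicate 1 (-0.92) or without GO2 replicate 2 (-1.10), and it kept its call in fewer settings than the other called ligands.

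Fgf18 and Fgf11 were not called. Fgf18, a ligand of bone and lung growth, differed by -0.09 (standard error 0.05, adjusted p = 0.226), and Fgf11 by -0.42 (standard error 0.13, adjusted p = 0.0657). For Fgf1, Fgf2, Fgf9 and Fgf10 the brightest probe was not well above background on any of the 4 arrays, although another Fgf1 probe was on 1 GO2 array. Fgf7, the keratinocyte growth factor made by stroma, was well above background on 1 array of each line and was not tested.

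**Figure D2:**
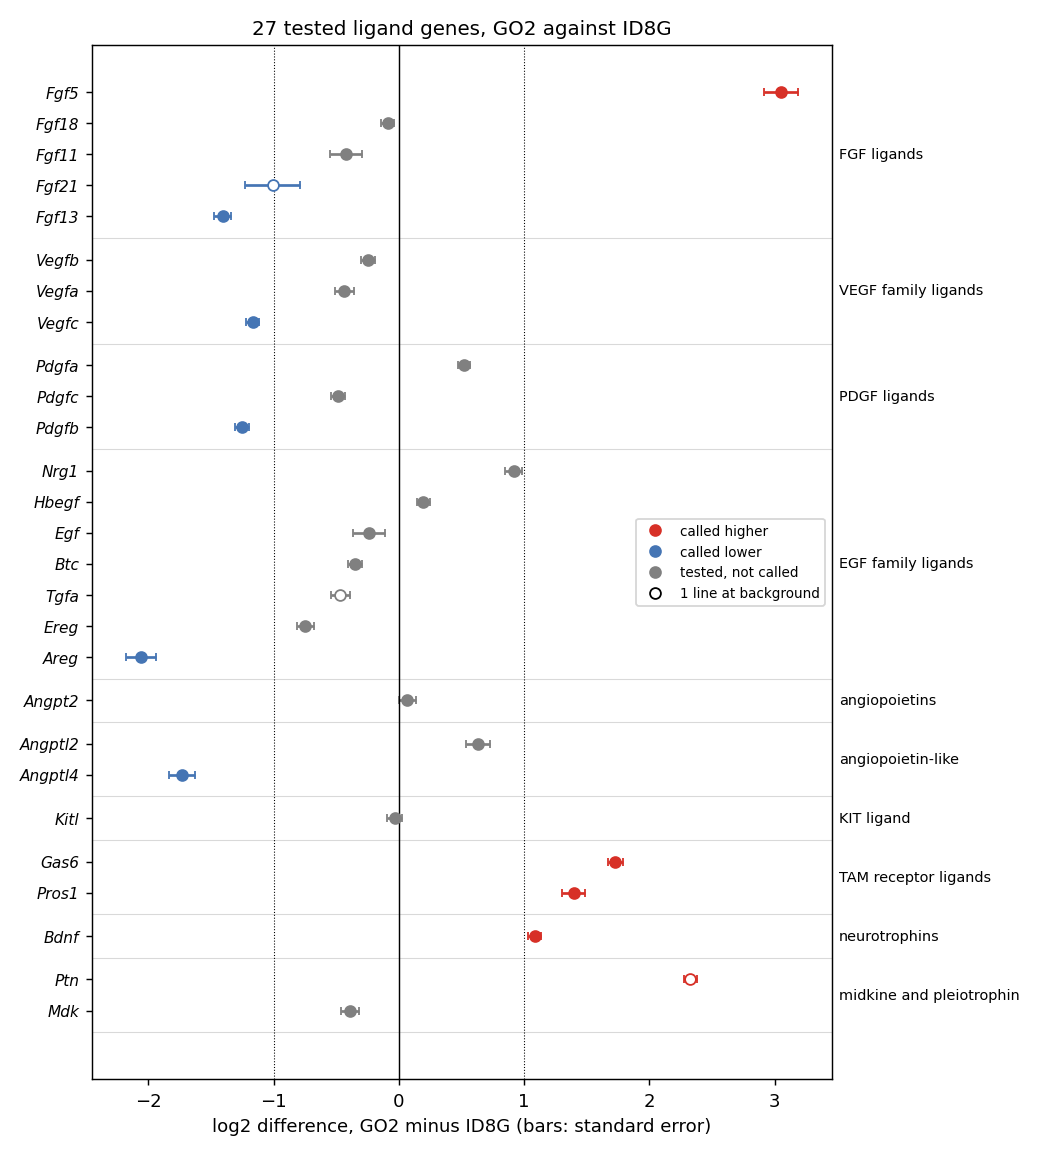
The log2 difference, GO2 minus ID8G, of the 27 tested ligand genes grouped by family, with the standard error of the limma fit as a bar. Dotted lines mark a 2-fold difference, red points were called higher, blue points lower, and open points had 1 line without signal well above background. Values run from -2.06 (Areg) to 3.05 (Fgf5).

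Of the VEGF genes in the set, Vegfa, Vegfb and Vegfc were tested. All 3 had an adjusted p below 0.05 and lower levels in GO2 cells, and 1 of them passed the 2-fold limit. Vegfc, the ligand of VEGFR3 that drives growth of lymphatic vessels, was at 2.21 on both arrays of ID8G cells and at 1.03 and 1.06 for GO2 cells. It fell by 1.17 (standard error 0.05, adjusted p = 0.000592), or 2.24-fold. Its second probe differed by -0.77, under the limit, and the mean of both probes by -0.97, so that the call rests on the brighter probe.

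Vegfa, the main ligand of VEGFR2 on endothelial cells, has 4 probes, and all 4 were lower in GO2 cells. The brightest was at 2.15 and 2.30 in ID8G cells and at 1.83 and 1.76 in GO2 cells, a difference of -0.43 (standard error 0.08, adjusted p = 0.0189). Further probes differed by -0.86 and -0.81, and the dimmest by -0.36 (adjusted p = 0.148). The probes thus disagreed in size and not in sign, and none reached a 2-fold difference. Vegfb differed by -0.25 (adjusted p = 0.0384). Pgf, the placental growth factor, was well above background on 1 ID8G array and on no GO2 array and was not tested.

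Among the PDGF ligands, which recruit fibroblasts and pericytes, Pdgfb fell and its relatives did not follow one direction. Pdgfb was at 3.21 and 3.24 in ID8G cells against 1.94 and 2.01 in GO2 cells. The difference was -1.25 with a standard error of 0.06, or 2.38-fold (adjusted p = 0.000654). Pdgfa differed by 0.52 (adjusted p = 0.00411), and its second probe by 0.57. Pdgfc differed by -0.48 (adjusted p = 0.00748). Pdgfd was not well above background on any array.

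Of the 8 genes of the EGF family, 7 were tested and Areg alone was called. Areg encodes amphiregulin, a ligand of EGFR that is shed by ADAM17. Its level was 0.04 and 0.16 in ID8G cells against -1.81 and -2.11 in GO2 cells. It fell by 2.06 (standard error 0.12, adjusted p = 0.00128), or 4.16-fold.

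The other EGFR ligands had smaller differences. Ereg, encoding epiregulin, differed by -0.75 (adjusted p = 0.00370), Btc by -0.35 (adjusted p = 0.0158) and Hbegf by 0.20 (adjusted p = 0.0449). Tgfa was not well above background on either GO2 array and was at least 1.38-fold lower there (adjusted p = 0.0160). Egf differed by -0.24 (adjusted p = 0.218). Nrg1, encoding neuregulin that binds ERBB3 and ERBB4, was at -1.25 and -1.14 in ID8G cells and at -0.31 and -0.25 in GO2 cells. Its difference of 0.92 (standard error 0.07, adjusted p = 0.00217) and that of its second tested probe, 0.98, lay just under the 2-fold limit. Nrg2 was not well above background on any array.

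Angptl4, a secreted inhibitor of lipoprotein lipase that also acts on vessels, fell. It was at 4.20 and 4.45 in ID8G cells against 2.63 and 2.56 in GO2 cells. The difference was -1.73 with a standard error of 0.10, or 3.32-fold (adjusted p = 0.00126). Angptl2 differed by 0.63 (adjusted p = 0.0121). Angpt2, which modulates signaling of the endothelial receptor TIE2, overlapped between the lines, with a difference of 0.07 (standard error 0.07, adjusted p = 0.464). Angpt1 was not well above background on any array.

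Of the neurotrophins, which act on neurons through TRK receptors, Bdnf was tested and rose. Its level was 1.01 and 0.99 in ID8G cells against 2.10 and 2.07 in GO2 cells, a difference of 1.08 with a standard error of 0.05 (2.12-fold, adjusted p = 0.000730). With the arrays scaled to the spike-in transcripts the difference was 0.88, under the 2-fold limit. Its receptor gene Ntrk2 differed by -0.15 (adjusted p = 0.269). Ntf3 was not well above background on any array.

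Midkine and pleiotrophin are a pair of related heparin-binding growth factors. Ptn was at -5.84 on both ID8G arrays, neither well above background, and at -3.49 and -3.54 on the GO2 arrays, which were. The fitted difference of 2.33 (standard error 0.05, adjusted p = 0.000228) has no measured base in ID8G cells, and the increase is at least 1.12-fold. Raising dim signals to the lowest signal well above background left a difference of 0.16, and normexp left 0.77, and in neither was Ptn called. Its second probe was not well above background on any array. All 3 Mdk probes had lower values in GO2 cells, with a difference of -0.39 (adjusted p = 0.0239) on the brightest.

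Kitl, the ligand of KIT, overlapped between the lines on its brightest probe, with a difference of -0.03 (standard error 0.06, adjusted p = 0.705). Its other probes differed by -0.63 and -0.20, so the probes of this gene did not give one answer. Hgf, the ligand of MET and chiefly a stromal product, was not well above background on any array by either of its probes.

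Beyond the 11 called genes, 11 tested ligands had an adjusted p below 0.05 with sizes from 0.197 to 0.918, of which 4 were higher and 7 lower in GO2 cells, and 5 did not pass. In all, 22 of 27 ligands (81.5%) passed on the adjusted p alone, against 41.0% of all tested genes. Of the 22, 9 were higher and 13 lower, where 21.0% and 20.0% of all tested genes were. The GO2 arrays lay above both ID8G arrays for 9 of the tested ligands and below both for 16, where the shares over all tested genes were 39.3% and 39.1%. The remaining 2 were Angpt2 and Kitl. The choice of the set with earlier results known limits these shares as well.

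The receptors and co-receptors of these ligands were read from a list of 40 genes, of which 22 were tested. Of these, 7 rose and 1 fell (31.8% and 4.55%), against 5.98% and 3.94% of all tested genes. Of the 20 with signal well above background on all 4 arrays, 6 rose and 0 fell, against 3.65% and 2.91% of all such genes. The list was chosen with earlier results of these data known, so these shares are not a test of it. Pdgfra, a receptor of PDGF-A and PDGF-C, was at -3.44 and -3.28 in ID8G cells against 0.31 and 0.37 in GO2 cells. It rose by 3.70 (standard error 0.08, adjusted p = 0.000207), or 13.0-fold. Pdgfrb, the main receptor of PDGF-B, was not well above background on either ID8G array and was at least 2.42-fold higher in GO2 cells (adjusted p = 0.000784). The PDGF receptors and the ligand Pdgfb were thus called in opposite directions in GO2 cells.

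Met, the receptor of HGF, rose by 1.28, from 2.64 and 2.56 to 3.89 and 3.87 (standard error 0.06, adjusted p = 0.000632). Sdc2, a heparan sulfate proteoglycan of the cell surface, rose by 1.81 (standard error 0.05, adjusted p = 0.000302). Lrp1 (1.05), the glypican Gpc1 (1.02) and Fgfr3 (1.01) passed the 2-fold limit narrowly and did not with spike-in scaling, which left 4 receptor genes higher. Kit fell and was at least 3.65-fold lower in GO2 cells, where it was not well above background (adjusted p = 0.00119). Its ligand Kitl had no called probe.

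Receptors by which ligands act on endothelium were mostly without signal. Kdr, Flt4, Tek and Tie1 were not well above background on any array, while Flt1 differed by -0.10 (adjusted p = 0.438) and the co-receptors Nrp1 and Nrp2 by 0.15 and 0.23. Egfr, which binds amphiregulin, differed by 0.41 (adjusted p = 0.0185), Erbb2 by -0.08 and Fgfr1 by -0.64 (adjusted p = 0.00411). Erbb3 and Erbb4 were not well above background on any array.

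**Figure D3:**
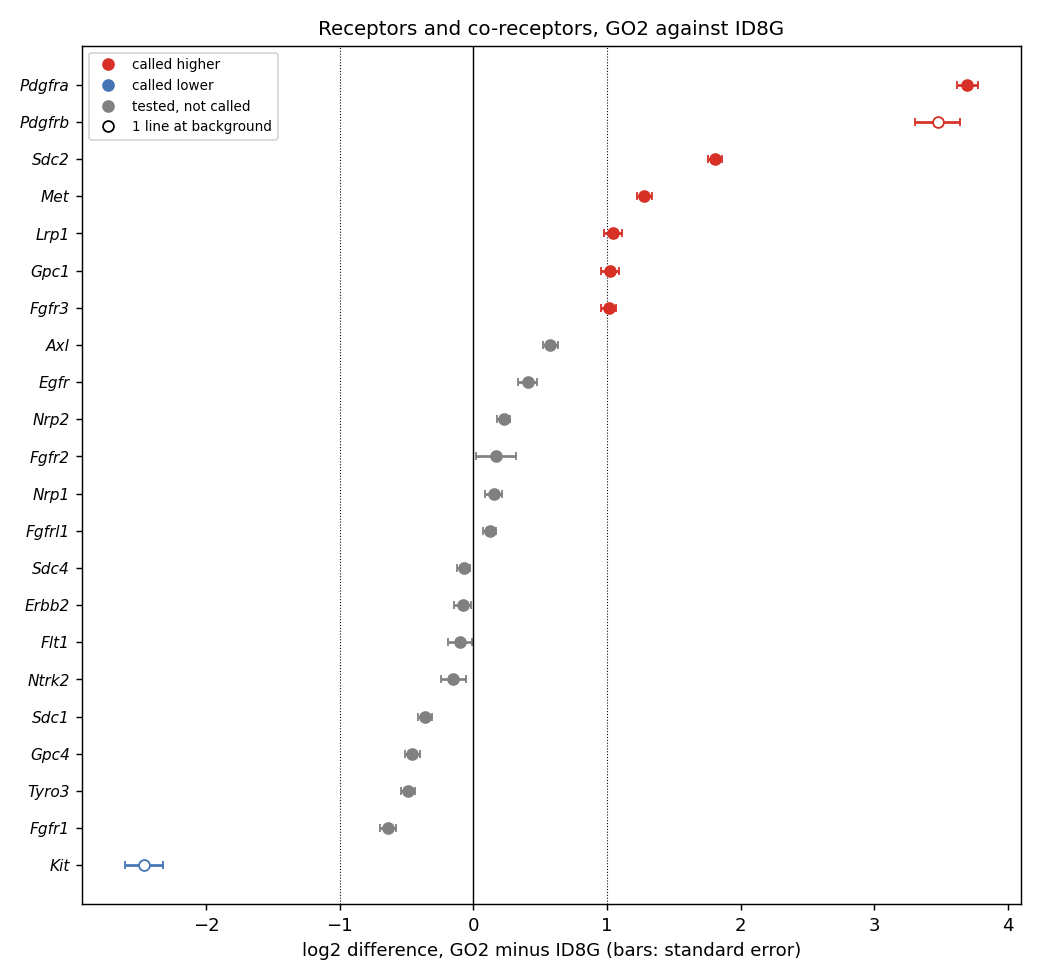
The log2 difference, GO2 minus ID8G, of the 22 tested receptor and co-receptor genes, with the standard error as a bar. Pdgfra and Pdgfrb lie above 3, Kit lies below -2, and open points (Pdgfrb, Kit) had 1 line without signal well above background.

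The proteases that release or mature the ligands and their inhibitors gave no call by limma among 11 tested genes of 18, where 9.92% of all tested genes were called. On the adjusted p alone, 2 were higher and 3 lower, where 21.0% and 20.0% of all tested genes were. Adam17, the sheddase of amphiregulin, differed by -0.34 (adjusted p = 0.0735), Adam10 by 0.46 (adjusted p = 0.00734) and Adam9 by -0.58 (adjusted p = 0.00357). Plat, which activates PDGF-C, differed by -0.95 (adjusted p = 0.00141), the largest difference among the 11 tested. Of 24 further ligand genes of the same families, 8 were tested. Of these, 1 rose and 1 fell, where 5.98% and 3.94% of all tested genes did. Vegfd, like Vegfc a ligand of VEGFR3, rose from -0.85 and -0.86 to 0.19 and 0.20, by 1.05 (adjusted p = 0.000730). Fgf8 fell by 1.41 (adjusted p = 0.000491).

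Vegfa, which was not called, and Angptl4 and Pdgfb are known targets of the hypoxia response. A list of 16 other genes of that response was read beside them. All 16 were tested, 6 fell and 1 rose (37.5% and 6.25%), against 3.94% and 5.98% of all tested genes. The median difference of the 16 was -0.54. These genes too were listed with earlier results of these data known. Adm, encoding the vasoactive peptide adrenomedullin, was at least 4.84-fold lower in GO2 cells, where it was not well above background (adjusted p = 0.000701). Ankrd37 fell by 2.94. Egln3, a prolyl hydroxylase that acts on HIF, fell by 1.90. Ddit4, an inhibitor of mTOR signaling, fell by 1.80, Ndrg1 fell by 1.38 and Pdk1 fell by 1.07.

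The list did not move as one. P4ha2, which hydroxylates proline in collagen, rose by 1.91 (adjusted p = 0.000284), and Car9 and Bnip3 differed by 0.92 and 0.82. The glycolytic genes Pgk1 and Ldha differed by -0.37 and -0.34. Angptl4 is also a target of PPAR factors. Of 10 genes of that kind, Angptl4 included, 7 were tested and 2 fell, where 3.94% of all tested genes fell. Angptl4 is itself among the 2, so the count adds only the second gene, Fabp4, a fatty acid binding protein. Fabp4 entered the test through ID8G cells alone and was at least 6.28-fold lower in GO2 cells (adjusted p = 0.000846). The count is therefore no test of the list, which was also chosen with earlier results of these data known. Plin2 differed by -0.83.

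**Figure D4:**
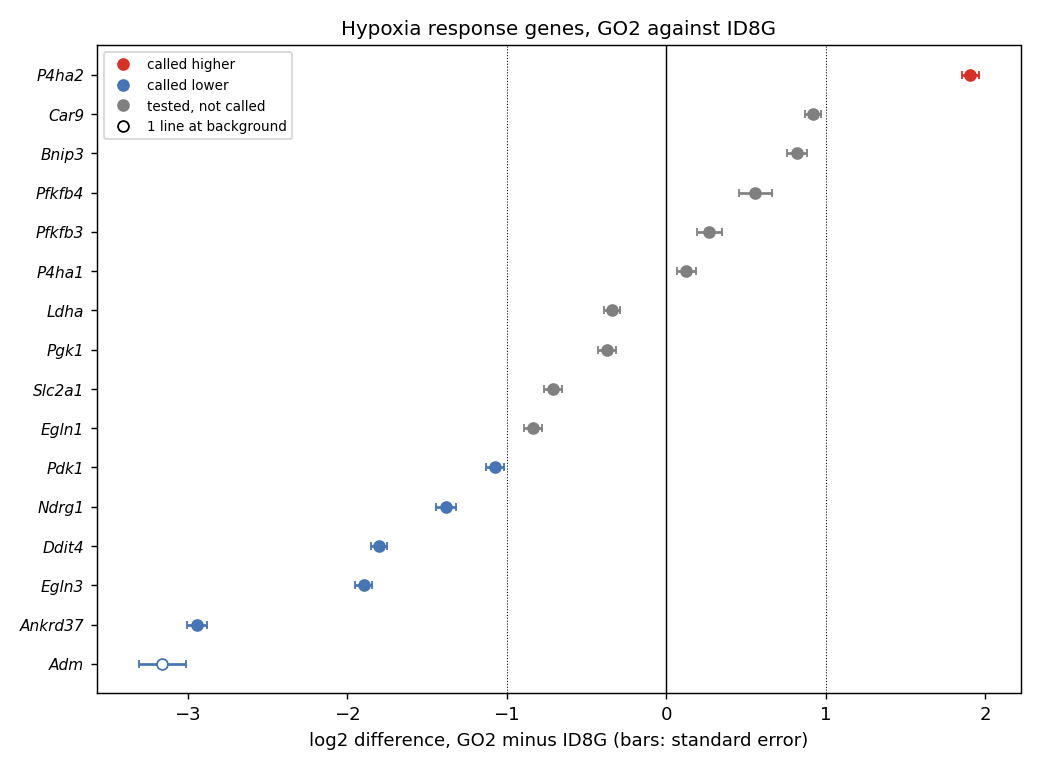
The log2 difference, GO2 minus ID8G, of the 16 hypoxia response genes, with the standard error as a bar and dotted lines at a 2-fold difference. The 6 called lower run from Adm, drawn open because GO2 cells were not well above background, to Pdk1, and P4ha2 is the only one called higher.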

How the data were processed

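RNA labeled with Cy3 was hybridized to 4 Agilent arrays, 2 for each of ID8G and GO2. The authors deposited the intensity of each spot, with the background removed in Feature Extraction 11.5.1.1 but no scaling across arrays, and a table of log2 values from GeneSpring. Their normalization is not given in the sources used here. Each probe of that table is centered, and its array differences follow the log2 intensities after scaling to the 75th percentile (median gap 0.000786). It served for 1 alternative.

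Control spots and spots marked as outliers were left out, spots of a probe were averaged, and the 75th percentile of each array was subtracted from the log2 intensity. A probe was tested if 1 line or both had it well above background on each array (28344 probes). A further 24 were left out because an array had only outlier spots. Cell line was the sole term of a limma 3.58.1 fit (R 4.3.3), and a call needed both an adjusted p under 0.05 and a difference of 1 or more in log2. Where no array of a line was well above background, its level on each array was raised to the lowest signal well above background, and the fold is a lower bound. Depth does not apply to arrays, and their number limits the precision. The steps were tested on simulated data. Figures were drawn with matplotlib 3.10.9 in python 3.11.15.

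Probes were named by RefSeq accession through GRCm38.p6 (32994 of 56605, 58.3%), and promoters are from RefSeq in that build. The array design used mm9, so no probe coordinate is given. All 38 ligands are named, and of each further list up to 3 called genes with the largest difference and the 3 brightest others, while more receptors, proteases, hypoxia genes and markers were chosen after their values were seen. The members and lists were chosen with earlier results of these data known. Alternatives changed background correction, scaling, filter, floor, outlier spots, variance model, test, threshold, replicate block, value table, probe choice and arrays. The slide could not serve as a block, because there is 1.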

Additional observations from a re-analysis of the deposited data

How the results depend on the processing

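The counts depended most on the test. The main result was 5 ligand genes higher and 6 lower, and 7 receptor genes higher and 1 lower. The paper names a t-test with Welch's correction for comparisons of 2 groups and does not name a test for the arrays. After Benjamini-Hochberg adjustment, this t-test gave 0 higher and 0 lower for ligands and for receptors. With 2 arrays per line it has little power, and over all probes it called 0 higher and 3 lower. At an unadjusted threshold of 0.05 and 2-fold it gave 5 and 5 ligands and 7 and 1 receptors. Testing against a 2-fold difference (limma treat) gave 3 ligands higher, 3 lower and 3 receptors higher, a stricter criterion by construction. With no minimum difference, 9 ligands were higher and 13 lower, and 5 receptors were lower. Normexp gave 4 receptors higher, and so did spike-in scaling. Without a filter on dim probes 2 receptors were lower, and requiring signal on all 4 arrays left 0 lower, since Kit was no longer tested (limma). Over all probes, normexp gave 818 higher and 517 lower, treat 749 and 439, signal on all 4 arrays 666 and 606, spike-in scaling 1102 and 1433, and no minimum difference 4831 and 5344, against 1277 and 946. The causes of the normexp and unfiltered shifts were not tested.

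Without 1 array in turn, ligands gave 5 higher and 5 to 6 lower and receptors 5 to 7 higher and 1 lower. The spread of the remaining single array was taken from the other line. Fgf21 was the ligand call lost. Among receptors, Gpc1 and Fgfr3 were lost without ID8G replicate 1, Lrp1 without ID8G replicate 2 and Fgfr3 without GO2 replicate 1, with differences of 0.96 to 0.99. A block for the replicate number was also fitted. With this replicate block the counts were 5, 6, 7 and 1, and no ligand call changed. The labels do not say whether replicate numbers mark pairs. Deviations of arrays with the same number correlated at 0.0273. With 2 arrays per line this is a single value, and it cannot show whether arrays were paired. For single ligands, 472 of 510 values under the alternatives had the same call status, 27 lost a call, 11 gained one, and 0 calls reversed. Fgf5, Areg, Angptl4 and Gas6 were called under every setting but the t-test. For Ptn and Fgf21 the signal of one line is not known, which limits both to a bound.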
